A study of Mus musculus with 3 samples.

Results

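The clustered histone genes of the mouse encode the linker histone H1 and the core histones H2A, H2B, H3 and H4 from the Hist1 to Hist4 loci. They were taken as the rows of the deposited tables whose symbol begins with Hist, a locus number from 1 to 4 and the letter h. These were 73 of 23832 rows, and 68 of 23337 gene symbols after each of the 5 symbols with several rows was reduced to its row of highest mean. The 68 genes comprised 6 of type H1, 18 of H2A, 19 of H2B, 12 of H3 and 13 of H4. In the GENCODE annotation 54 of them lie in the Hist1 locus on chromosome 13, 10 in Hist2 on chromosome 3, 3 in Hist3 on chromosome 11 and 1 in Hist4 on chromosome 6.

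The mice were wild-type, of strain C57/Bl6j and 7 weeks of age, with no treatment given in the labels. Their CD4+ T cells, labelled as Th1 (the interferon gamma producing helper subset), were the source of all RNA. The lymphoid group held 2 libraries, titled as spleen, whose tissue label also names lymph nodes and draining lymph nodes. For the tumour group, 1 library, cells were taken from tumours of B16-F10, which is a melanoma line grown by transplantation. The labels do not say whether animals were pooled or whether each lymphoid library stands for other animals, so p-values reflect only how far the libraries differ, and that spread may be technical. Levels are given as scaled FPKM, which are deposited values taken as fragments per kilobase of transcript, relative to library depth, and divided by a median-of-ratios size factor for each library (1.29, 1.33 and 0.58). Depth, estimated from the smallest steps in the values, was 11440000 and 15430000 fragments in lymphoid libraries 1 and 2 and 3250000 in the tumour library. Change is the difference in log2(scaled FPKM + 1) between tumour and the lymphoid mean, and a gene was called higher or lower at a Benjamini-Hochberg adjusted p under 0.05 from limma over all 9800 tested genes.

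Replication-dependent histone genes are transcribed in S phase, when new DNA must be packed into nucleosomes. Most have no intron, and their mRNA ends in a conserved stem-loop in place of a poly(A) tail. The stem-loop is bound by SLBP, and the 3' end is cut with the help of the U7 small nuclear RNA, so a library made after ribosomal RNA removal retains these mRNAs where a poly(A)-selected one loses most of them.

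A perfect stem-loop, sought as a stem of 6 bases starting with GG, a loop of 4 bases starting with TT and the reverse complement of the stem, followed the stop codon in 44 of the 68 genes. In 51 genes the annotated transcript ran at least 40 nt past the stop codon. Among other protein-coding transcripts of at least 150 nt, 11 of 58623 (0.02%) held such a structure in their last 150 nt, against 22 of the clustered genes. The sites below, 26 nt each, show the cores found, with stem and loop in capitals. They were read from GENCODE M21 transcripts.
Hist1h1c: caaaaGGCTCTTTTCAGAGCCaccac
Hist1h2ag: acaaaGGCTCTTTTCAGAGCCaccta
Hist1h2bj: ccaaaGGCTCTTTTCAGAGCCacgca
Hist2h2ac: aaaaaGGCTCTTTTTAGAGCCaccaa
Hist1h3e: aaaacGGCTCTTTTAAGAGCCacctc
Hist1h4d: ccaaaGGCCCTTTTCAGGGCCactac
Hist4h4: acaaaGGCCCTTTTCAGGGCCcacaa
Hist2h4: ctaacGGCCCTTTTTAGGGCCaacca
Hist1h4j: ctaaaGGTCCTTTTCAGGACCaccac
The core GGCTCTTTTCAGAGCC was shared by 26 genes of types H1, H2A, H2B and H3. All H4 stem-loops differed from it in the stem: 7 H4 genes had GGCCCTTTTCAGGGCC, 2 had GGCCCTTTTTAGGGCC and 2 had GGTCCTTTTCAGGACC. The annotated transcript of Hist4h4 ran 2445 nt beyond its stem-loop and that of Hist2h4 1257 nt, while in Hist1h2ag and Hist1h2bj 23 nt were left. Which 3' end the deposited values assume was not given in the sources used here.

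Promoter windows of 300 bases around the gene start, most of them upstream, from RefSeq (GRCm38.p6), matched 62 of the 68 genes. TATAAA, on either strand, was present in 35 (56.5%) of them and in 13.6% of 32544 distinct windows. CCAAT, on either strand, was present in 53 (85.5%) and in 37.4% of all windows. The windows of 3 genes that return below are shown with these motifs in capitals (ATTGG is CCAAT on the other strand). They are Hist1h2ag, Hist1h4d (the H4 gene of highest lymphoid level) and Hist4h4 (the H4 gene called higher in tumour). The window of Hist1h2ag overlaps that of Hist1h2bj on the opposite strand.
Hist1h2ag, chr13:22042900-22043199, minus strand: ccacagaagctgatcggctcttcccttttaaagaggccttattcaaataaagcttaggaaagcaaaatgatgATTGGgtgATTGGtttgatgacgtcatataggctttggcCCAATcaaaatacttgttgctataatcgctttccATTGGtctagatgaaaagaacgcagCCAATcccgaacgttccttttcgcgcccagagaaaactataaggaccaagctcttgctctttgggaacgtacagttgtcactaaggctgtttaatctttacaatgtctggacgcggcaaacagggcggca
Hist1h4d, chr13:23581318-23581617, plus strand: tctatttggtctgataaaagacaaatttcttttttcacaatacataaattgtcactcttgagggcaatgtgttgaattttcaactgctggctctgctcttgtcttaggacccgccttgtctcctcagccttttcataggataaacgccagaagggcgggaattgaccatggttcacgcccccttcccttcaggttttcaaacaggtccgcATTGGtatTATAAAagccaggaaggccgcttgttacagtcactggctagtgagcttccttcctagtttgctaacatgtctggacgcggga
Hist4h4, chr6:136804382-136804681, minus strand: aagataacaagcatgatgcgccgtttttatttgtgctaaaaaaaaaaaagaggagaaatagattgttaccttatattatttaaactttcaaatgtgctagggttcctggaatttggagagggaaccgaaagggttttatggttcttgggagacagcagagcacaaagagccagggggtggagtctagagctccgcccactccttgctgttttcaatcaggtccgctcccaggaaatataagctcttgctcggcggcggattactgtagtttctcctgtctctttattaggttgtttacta
The window of Hist1h2ag held 5 CCAAT matches. TATAAA and 1 CCAAT match were found in the window of Hist1h4d, and neither motif in that of Hist4h4.

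After median-of-ratios scaling, more clustered histone genes were called lower than higher in the tumour library. With library totals 15 were higher and 7 lower, where 94.0% of the calls over all tested genes were higher and 6.0% lower. With the counting error described below the histone counts were 0 and 0. With median of ratios 66 genes were tested and 18 (27.3%) were called, beside 21.9% of all tested genes. The 16 lower calls made 24.2% of the tested histone genes, against 9.17% of all genes, and the 2 higher calls 3.0%, against 12.7%. Of the tested genes, 42 (63.6%) lay below both lymphoid libraries, where 42.6% of all genes did, and 10 (15.2%) lay above both, where 41.3% of all genes did. The median change was -0.41 for the histone genes and -0.01 for all tested genes. The sign of that median depended on the scaling: as deposited it was -1.31 with a median of -0.96 over all genes, and with library totals it was 0.27 with 0.65 over all genes. Relative to all genes the histone median was lower each time, with differences of -0.40, -0.36 and -0.38. Under the 5 scalings tried, 48 to 50 of the 66 genes lay below the median of all genes. These values had to be alike, since each scaling divides a library by a single factor. That shifts all genes alike apart from the pseudocount, so their likeness is no check of the difference. The split of calls over all genes moved as well, with 58.1% of calls higher after median of ratios, 5.8% as deposited, 94.0% with library totals and 30.3% when all genes above 0 set the size factors.

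Few fragments stand behind these calls. The median tested histone gene had an estimated 4.4 fragments in the tumour library, and 45 of the 61 genes with an estimate had under 10. When the counting error of the tumour value was added to the limma fit, 0 of 61 genes were called in either direction, beside 4.10% of all genes (3.74% higher and 0.359% lower). At an unadjusted p under 0.05 that fit had 1 histone gene higher and 5 lower, 9.84% of the 61, beside 17.3% of all genes (10.9% higher and 6.41% lower). With the longest GENCODE transcript of each gene as its length, an alternative chosen after seeing the data, Hist4h4 was called higher (adjusted p = 0.0132) and Hist1h4n lower (adjusted p = 0.0493).

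The lymphoid libraries also differed from each other. Lymphoid library 2 was above library 1 in 56 of the 66 tested histone genes, with a median log2 ratio of 0.31, against -0.02 over all tested genes. The SD of that ratio was 0.41 over the histone genes and 0.36 over all genes. Against library 1 alone the median change in tumour was -0.19, and against library 2 alone it was -0.64.

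Almost every row was above 0. Of the 73 rows, 0 were at 0 in either lymphoid library and 1, that of Hist1h1b, in the tumour library. Over all rows, 32.0%, 19.1% and 22.2% were at 0 in lymphoid 1, lymphoid 2 and tumour. Rows under 0.01 FPKM as deposited numbered 1, 1 and 6, and 5 of the 6 in tumour belonged to symbols with several rows.

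**Figure D1:**
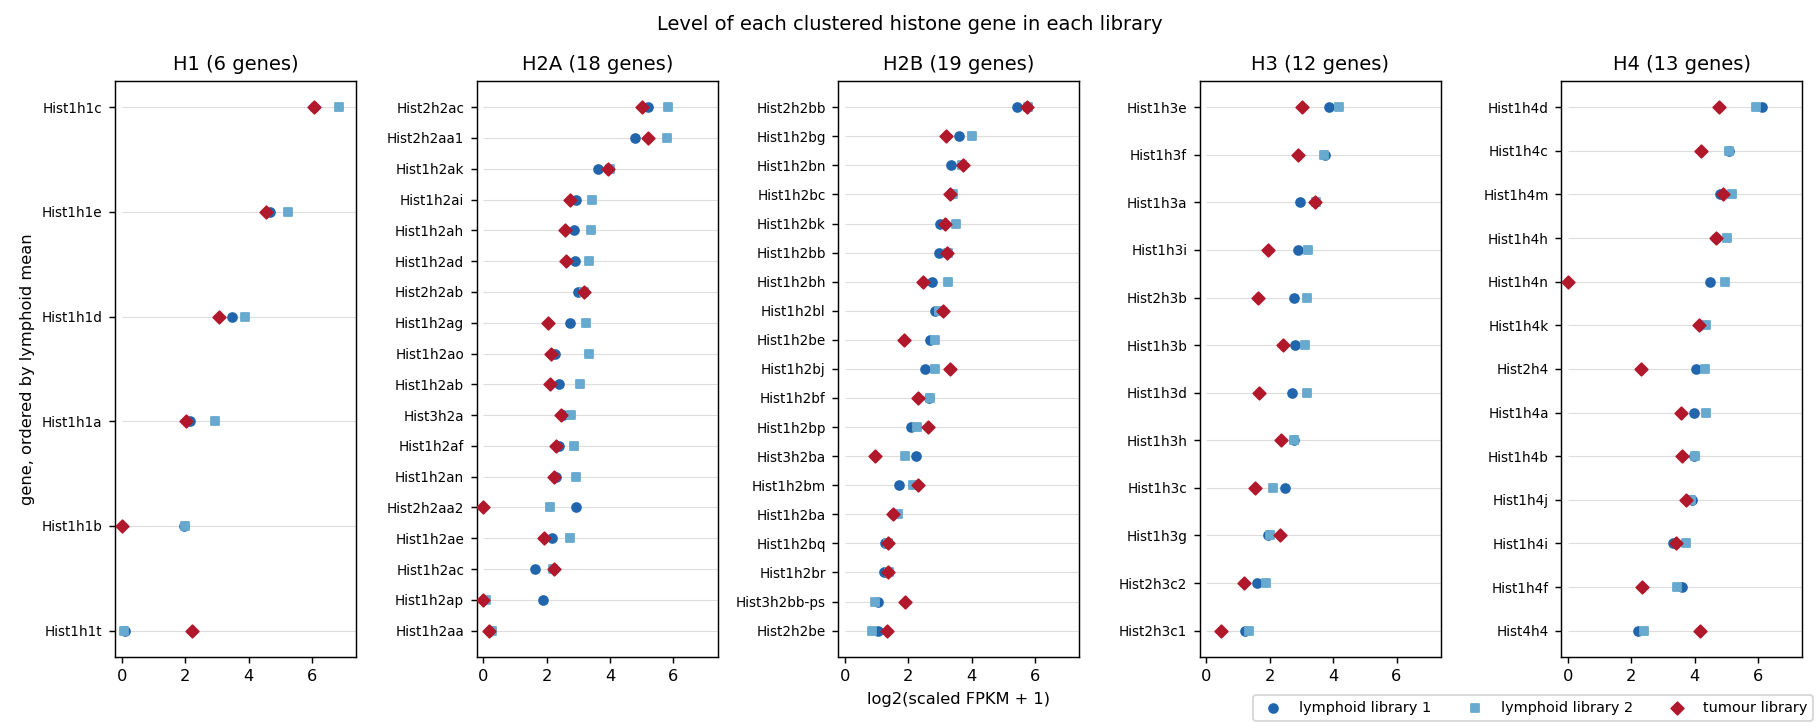
Level of each of the 68 genes as log2(scaled FPKM + 1) on the x axis, in lymphoid library 1 (circles), lymphoid library 2 (squares) and the tumour library (diamonds), by histone type and ordered by lymphoid mean. The H3 and H4 diamonds often lie left of both lymphoid symbols, Hist4h4 lies to the right, and Hist1h1b, Hist1h4n and Hist2h2aa2 lie at or near 0 in tumour.

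**Figure D2:**
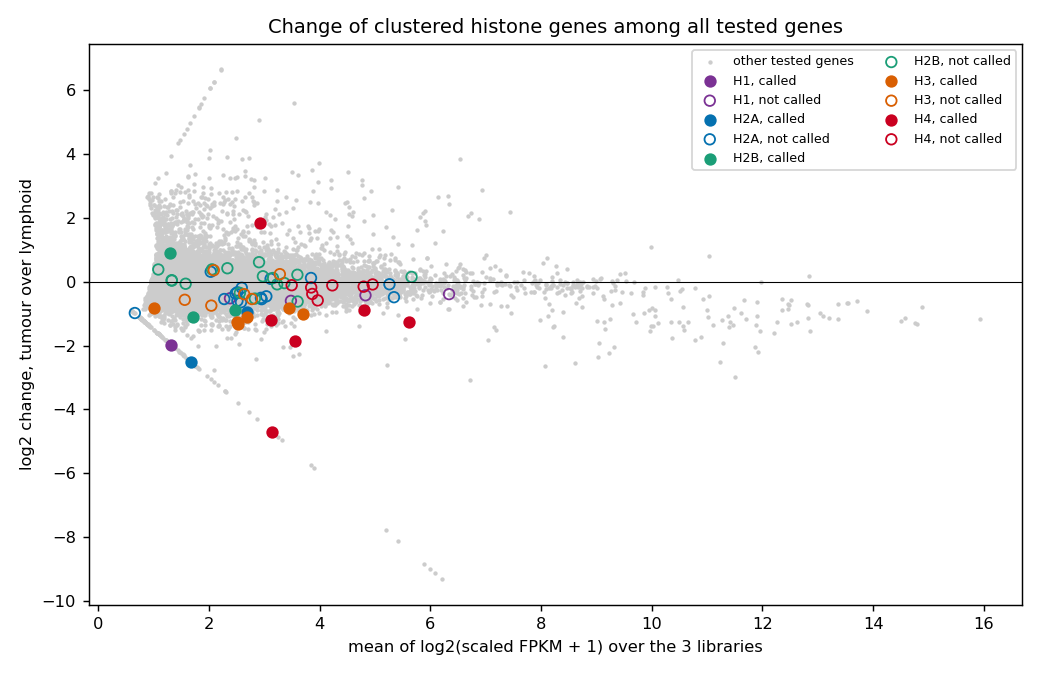
Log2 change, tumour over the lymphoid mean, against the mean log2(scaled FPKM + 1) of the 3 libraries, for all 9800 tested genes (grey) and the 66 tested histone genes (coloured by type, filled where called). Histone genes are mostly below the zero line, with 16 filled points below it and 2 above it. Of all tested genes 9.17% were called lower and 12.7% higher. With library totals as scaling 15 histone genes were called higher and 7 lower, where 94.0% of the calls over all tested genes were higher and 6.0% lower.

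Summed over 1 row for each gene, the 68 genes reached 726, 946 and 613 scaled FPKM in lymphoid 1, lymphoid 2 and tumour. The 5 types did not shift alike. Against the lymphoid mean the log2 change of the sum was -0.78 for H3, -0.66 for H4, -0.46 for H1, -0.42 for H2A and 0.01 for H2B. With all rows of each gene added it was -0.51 for H4 and -0.44 for H2A, close to the -0.46 of H1. H1, H2B and H3 have 1 row for each gene, so their values stayed the same. With library totals and 1 row for each gene, all 5 types were above 0, at 0.00077 for H3. All types but H2B lay below both lymphoid libraries. H1 and H2A were only slightly below library 1 (log2 ratios -0.06 and -0.08) and well below library 2. H2B lay between the lymphoid libraries. Ratios within a library do not depend on the scaling. The H3 sum was 0.564 and 0.547 of the H2B sum in the lymphoid libraries and 0.320 in tumour, and the H4 sum, here with all rows of each gene added, was 2.12, 1.90 and 1.39 times the H2B sum. The sums are given without a test; with 1 tumour library no permutation of libraries can give a p under 0.33. In bulk RNA, fewer cells that express these genes and less of their RNA in each cell cannot be told apart.

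**Figure D3:**
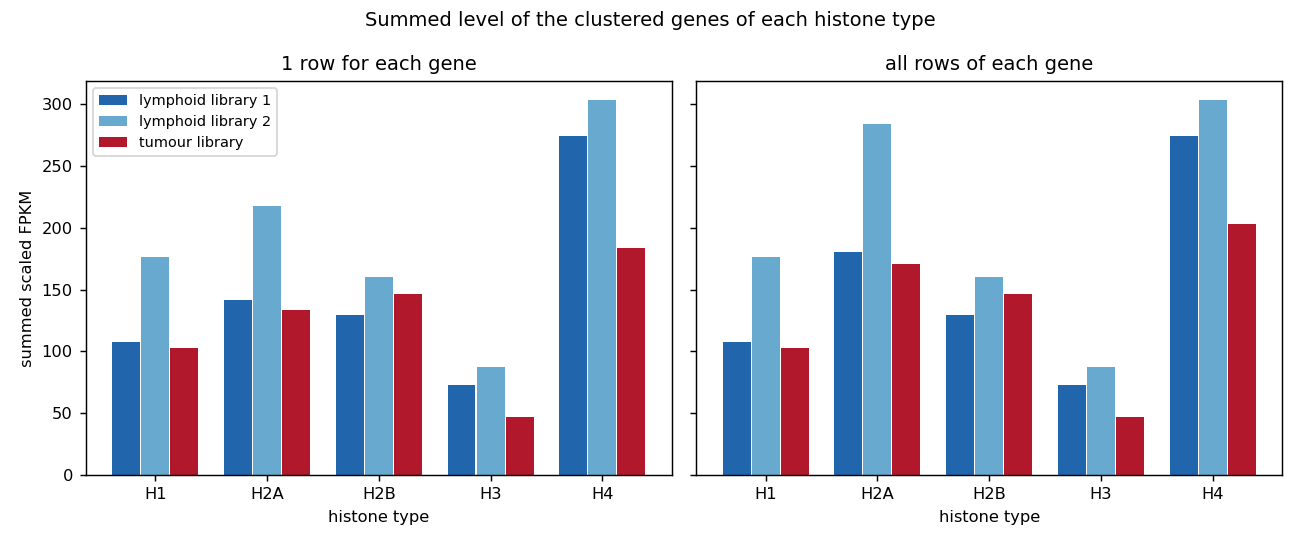
Summed scaled FPKM of each histone type in each library, with 1 row for each gene on the left and all rows of each gene on the right. The tumour bar is below both lymphoid bars for H1, H2A, H3 and H4, and between them for H2B. For H1 and H2A it is close to the bar of lymphoid library 1. The H4 tumour sum is 183 on the left and 203 on the right. Under library totals the H1, H2A, H3 and H4 sums lie above the lymphoid mean.

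H1 binds the linker DNA between nucleosomes. Its summed level was 108, 176 and 103, with a spread between the lymphoid libraries (log2 ratio 0.71) larger than the change against their mean. Hist1h1c supplied 61.5%, 65.6% and 64.5% of it. This gene, at chr13:23738808-23740367, stood at 66.2 and 116 in the lymphoid libraries and 66.5 in tumour, and it was not called (change -0.39, adjusted p = 0.464). The tumour value equalled that of lymphoid 1 within 1 unit of scaled FPKM and lay far below lymphoid 2. Hist1h1e stood at 24.7, 37.2 and 22.3 and Hist1h1d at 10.2, 13.7 and 7.45, both below both lymphoid libraries and neither called (adjusted p = 0.309 and 0.102). Hist1h1b was the only gene called among 5 tested H1 genes, and was lower, where 9.17% of all tested genes were called lower. It stood at 2.93 and 2.98 in the lymphoid libraries and was listed at 0 in tumour (change -1.98, SE 0.15, adjusted p = 0.00126). All 75-base windows of its coding sequence were unique in the annotated transcripts, searched on both strands. A level at the lymphoid mean would have given an estimated 4.1 tumour fragments; a count of 0 allows up to 3, or 2.17 scaled FPKM, so that the tumour level was at least 1.36-fold lower by this floor, which covers counting error only.

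Hist1h1t encodes the H1 of male germ cells and was not tested, since its mean as deposited was under 1. It was chosen for mention after its values were seen. It stood at 0.0804 and 0.0575 in the lymphoid libraries, about 0.8 of a fragment in each, and at 3.70 in tumour, an estimated 4.74 fragments. The tumour library alone held more than 1 fragment. The other germ cell members, Hist1h2aa and Hist1h2ba, stood at 0.142 and 1.90 in tumour, the first below both lymphoid values and the second between them.

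H2A pairs with H2B in the dimers that flank the tetramer of H3 and H4 in the nucleosome. The H2A sum was 141, 218 and 134. Of 17 tested genes 2 were called, both lower, where 9.17% of all tested genes were called lower. The 2 genes that led this type, Hist2h2ac and Hist2h2aa1, were not called. Hist2h2ac stood at 35.5, 55.5 and 31.4, below library 1 by less than the lymphoid libraries differed and further below library 2 (adjusted p = 0.287). Hist2h2aa1 stood at 26.5, 54.5 and 35.9, with tumour between the lymphoid libraries. Hist1h2ak, at 11.3, 14.9 and 14.1, also lay between them. Hist1h2ag fell from 5.66 and 8.56 to 3.13 (change -0.95, SE 0.24, adjusted p = 0.0449), on 2.57 estimated tumour fragments. Its tumour level was 44.0% of the lymphoid mean with a 95% Poisson interval of 7.59% to 139%, and the call was lost with a pseudocount of 5 (adjusted p = 0.0586) and without the mean-variance trend (adjusted p = 0.0511). None of the 75-base windows of its coding sequence were unique, and Gm44486 overlaps it on the other strand.

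H2B was the type whose tumour level lay closest to the lymphoid one. Its sum was 130, 160 and 146. Of 19 tested genes 7 lay above both lymphoid libraries and 6 below both, beside 41.3% and 42.6% of all tested genes. Lower calls numbered 2 and higher calls 1, beside 9.17% and 12.7% of all tested genes. Hist2h2bb supplied 32.7%, 33.7% and 36.4% of the sum. It stood at 42.4, 54.0 and 53.1, and Hist1h2bn at 9.23, 12.0 and 12.4, neither called (adjusted p = 0.671 and 0.483). Tumour lay inside the lymphoid range for the first gene and slightly above it for the second. None of the 75-base windows of the coding sequence of Hist2h2bb were unique. They were shared only with Gm42743, which overlaps it on the same strand, and Gm20628, which overlaps it on the other. Hist1h2bg stood at 11.2, 15.1 and 8.11, below both (adjusted p = 0.0963). The 2 genes called lower were Hist1h2be, at 5.48, 6.12 and 2.66 (adjusted p = 0.0146), and Hist3h2ba, at 3.79, 2.74 and 0.959 (adjusted p = 0.0163). Hist1h2be overlaps Hist1h1e on the same strand in the annotation, so their reads cannot be fully told apart, and Hist3h2ba had 0.77 of a fragment in tumour. Hist3h2bb-ps, annotated as a processed pseudogene, was called higher at 1.09, 0.939 and 2.72 (change 0.89, adjusted p = 0.0167), on 2.21 fragments.

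H3 forms the tetramer at the centre of the nucleosome together with H4. The H3 sum was 73.1, 87.7 and 46.7, so that tumour stood at 58.1% of the lymphoid mean, with a 95% Poisson interval of 43.2% to 76.5% for the tumour count alone. Of 12 tested genes 10 lay below both lymphoid libraries, where 42.6% of all tested genes did. Lower calls numbered 6 and higher calls 0, beside 9.17% and 12.7% of all tested genes. Hist1h3e, the H3 gene of highest level, fell from 13.7 and 17.2 to 7.20 (change -0.998, SE 0.20, adjusted p = 0.0215). Hist1h3f fell from 12.4 and 12.1 to 6.40 (change -0.84, SE 0.16, adjusted p = 0.0184). In both genes the tumour value was below both lymphoid values, on 11.4 and 10.1 fragments, and the lymphoid values differed more in Hist1h3e (log2 ratio 0.31) than in Hist1h3f (-0.03). The largest fitted falls were those of Hist2h3b, from 5.86 and 8.04 to 2.12, Hist1h3d, from 5.50 and 7.97 to 2.18, and Hist1h3i, from 6.37 and 8.27 to 2.84 (adjusted p = 0.0108, 0.0165 and 0.0150). Each of these 3 had under 3 fragments in tumour, and their Poisson intervals reached past the lymphoid mean (up to 115%, 120% and 127% of it). The sixth, Hist2h3c1, had 0.45 of a fragment. The remaining 2 of the 12 genes were not below both lymphoid libraries. Hist1h3a stood at 6.71, 9.99 and 9.83, inside the lymphoid range (adjusted p = 0.530), and its share of the H3 sum was 9.2%, 11.4% and 21.1%. Hist1h3g stood at 2.83, 3.002 and 4.01, above both (adjusted p = 0.141), with shares of 3.9%, 3.4% and 8.6%.

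H4 was the most abundant type, with 35.9%, 30.0% and 30.3% of the summed level of the 68 genes when all of their 73 rows were added. Its sum over 1 row for each gene was 275, 304 and 183, and 203 in tumour over all rows, which is 70.3% of the lymphoid mean (Poisson interval 59.4% to 82.7%). Of 13 tested genes 5 were called lower and 1 higher, beside 9.17% and 12.7% of all tested genes. Hist1h4d, at chr13:23581598-23582735, led the type in both lymphoid libraries. It fell from 69.1 and 60.4 to 26.5 (change -1.25, SE 0.19, adjusted p = 0.0109), and its share of the H4 sum over all rows was 25.2%, 19.9% and 13.0%. This was the best counted of the lower calls, with 18.6 fragments where the lymphoid mean would give 45.4, and its Poisson interval ran from 24.5% to 64.2% of the lymphoid mean. With counting error added its adjusted p was 0.180. Hist1h4c fell from 32.9 and 33.3 to 17.5 (change -0.88, SE 0.17, adjusted p = 0.0212). Hist2h4 fell from 15.4 and 19.1 to 3.98 (change -1.87, SE 0.19, adjusted p = 0.00287), and Hist1h4f from 11.05 and 10.01 to 4.05 (adjusted p = 0.00675), both on under 3 fragments. Hist1h4m, whose coding sequence is identical to that of Hist1h4n, stood at 26.7, 35.2 and 28.8 and was not called.

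Hist4h4 went the other way. This single gene of the Hist4 locus, at chr6:136801553-136804415, rose from 3.69 and 4.27 to 16.9 (change 1.85, SE 0.16, adjusted p = 0.00177), and its share of the H4 sum over all rows was 1.3%, 1.4% and 8.3%. The tumour value was 425% of the lymphoid mean, with a Poisson interval of 226% to 727%, on 12.9 estimated fragments at its RefSeq length of 439 nt. All 75-base windows of its coding sequence were unique. With counting error added its adjusted p was 0.0924 at the RefSeq length and 0.0132 at the GENCODE length of 2863 nt, where the same value stands for 91.3 fragments. Its stem-loop core, shown above, is the one that Hist1h4d, Hist1h4c and Hist1h4f carry.

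Histone genes of 1 type are so alike that reads can be shared among them. The median identity of coding sequences of equal length was 96.4% for H2A, 97.2% for H2B, 97.6% for H3 and 93.9% for H4. For the median histone gene, 30.7% of the 75-base windows of its coding sequence were found in no other annotated gene. For 15 genes the value was 0% and for 6 it was 100%. Where no coding sequence was annotated, the whole transcript was used. Other transcripts were searched on both strands, so genes antisense to a histone gene also counted. Untranslated ends were not assessed. Across the 66 tested genes this share and the change had a Spearman correlation of 0.10 and a Pearson correlation of 0.14; genes share reads and are not independent. Near-identical genes are therefore uncertain one by one. The clearest case was Hist1h4n, which had 2 rows. The row of highest mean stood at 21.3 and 30.0 in the lymphoid libraries and 0.000134 in tumour, and its call (change -4.72, adjusted p = 0.000492) has the largest size of all the histone genes. The other row stood at 4.6e-05 and 9.8e-05 in the lymphoid libraries and 19.9 in tumour. The 2 rows thus exchanged places, and their sum was not called (change -0.33, adjusted p = 0.385). Hist1h4m and all rows of Hist1h4n together gave 48.0, 65.2 and 48.8.

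Between rows of 1 symbol no such exchange was seen in the other pairs of identical genes. Between the genes of a pair, levels could move in opposite directions. From lymphoid 1 to lymphoid 2 the rows of Hist1h2ao rose from 3.8 and 3.7 to 9.0 and 8.9. Those of Hist1h2ap fell from 2.4 and 2.7 to 0.098 and 0.064. Hist2h2aa1 gave 29.4%, 38.1% and 40.5% of the H2A sum over all rows, and Hist2h2aa2 7.2%, 2.3% and 0.0%. How reads were divided within a pair was not tested. Hist2h2aa2, called lower at 6.53, 3.34 and 0.00033 (change -2.51, adjusted p = 0.00640), shares its coding sequence with Hist2h2aa1, and both of its rows were near 0 in tumour; the 4 rows of both genes gave 66.0, 115 and 69.3. That sum lay between the lymphoid libraries. Hist1h2ao and Hist1h2ap together gave 12.7, 18.1 and 7.18, below both lymphoid libraries, with Hist1h2ap above 1 only in lymphoid 1. The 2 H2B genes of identical sequence, Hist1h2bq and Hist1h2br, gave 2.76, 3.21 and 3.12, with like values for both in each library.

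**Figure D4:**
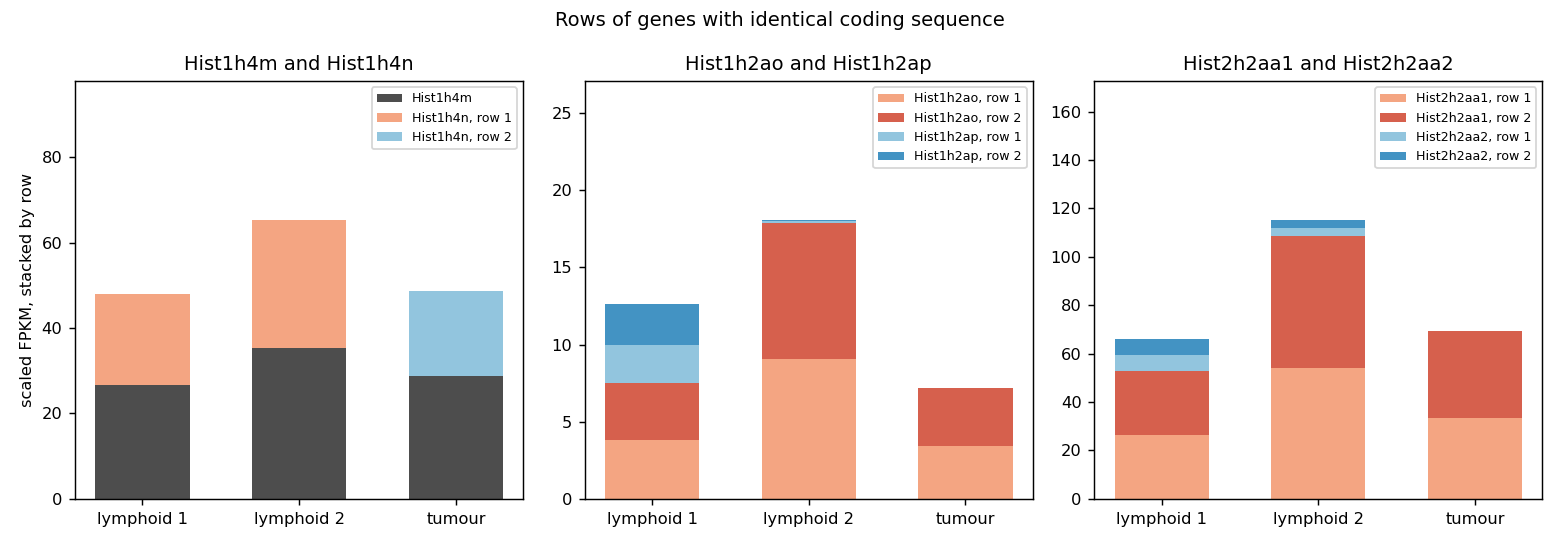
Scaled FPKM of each row, stacked, for 3 pairs of genes with identical coding sequence in the 3 libraries. Hist1h4n changes rows between the lymphoid libraries (row 1) and tumour (row 2), while the height of the whole bar with Hist1h4m is 48.0, 65.2 and 48.8; rows of Hist2h2aa2 and Hist1h2ap are near 0 in tumour.

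Many H2A and H2B genes stand head to head and share 1 promoter region. Among the genes there were 13 such divergent pairs, with 173 to 306 bases between the starts (median 251). In the 12 pairs with both genes tested, the H2B gene had the higher change in 10, and the median difference, H2B minus H2A, was 0.65 on the log2 scale. The widest gap was that of Hist1h2ag, whose window is printed above, and Hist1h2bj. Hist1h2ag fell to 3.13, while Hist1h2bj stood at 4.83, 6.26 and 8.93, above both lymphoid libraries without passing the test (change 0.61, adjusted p = 0.0765). Hist3h2a (4.79, 5.87 and 4.52) and Hist3h2bb-ps differed by 1.08, and Hist2h2ac and Hist2h2be by 0.87. The order held against each lymphoid library, in 9 of 12 pairs against library 1 and 11 of 12 against library 2. Between the lymphoid libraries it was reversed: from library 1 to library 2 the H2B gene had the higher change in 1 of 12 pairs, with a median difference of -0.37. Across the 12 pairs the changes of the H2A and the H2B gene had a Spearman correlation of 0.21 and a Pearson correlation of 0.04; the genes share their libraries and some of their reads.

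**Figure D5:**
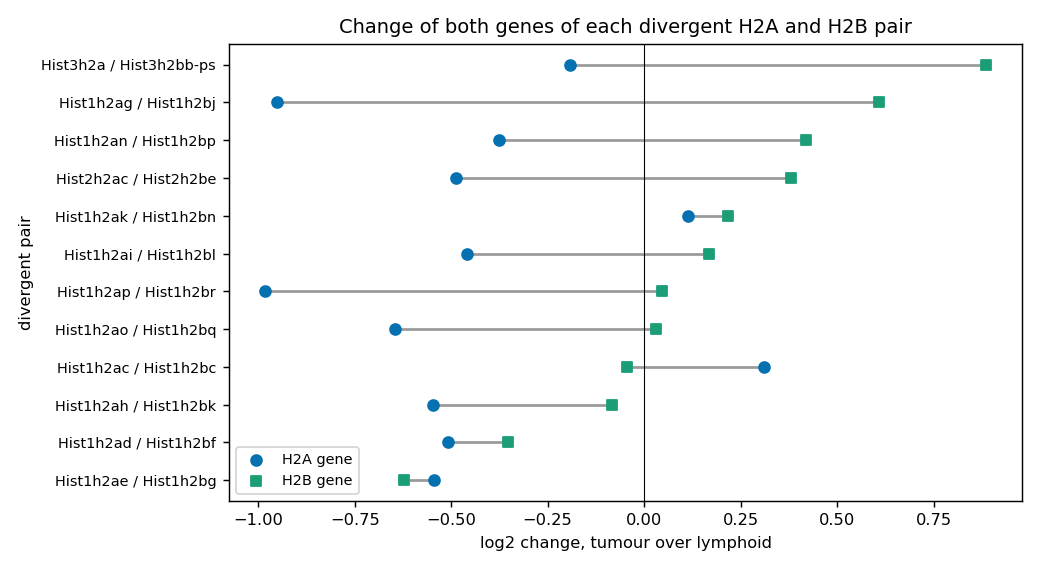
Log2 change, tumour over the lymphoid mean, of the H2A gene (circle) and the H2B gene (square) of each of 12 divergent pairs, joined by a line. The square lies to the right of the circle in 10 pairs, with the widest gap, 1.56, in Hist1h2ag and Hist1h2bj.

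Genes were also grouped by stem-loop core and by transcript length. Among tested genes the median change was -0.54 for the 26 with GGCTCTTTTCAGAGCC, -0.88 for the 7 H4 genes with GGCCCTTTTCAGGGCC, -0.75 for the 5 with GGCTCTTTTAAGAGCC and -0.07 for the 23 without a stem-loop found. The 3 cores of 1 or 2 genes had medians of -0.99 (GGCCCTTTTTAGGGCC), -0.28 (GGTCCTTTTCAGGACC) and -0.49 (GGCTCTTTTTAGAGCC). Each group with a stem-loop lay below the group without one, but the groups also differ in histone type. Cores beginning with GGCCC or GGTCC were found only in H4. The group without a stem-loop includes Hist1h2bc, Hist1h2bq, Hist1h2br and Hist2h2be of type H2B, a type with a median change of 0.05. Core and type were not separated. Of the 24 genes without a stem-loop found, 17 have under 40 nt annotated after the stop codon or no coding annotation, so 1 could be missed. The 16 of these that were tested had a median of -0.23 and the other 7 a median of 0.03. The 23 tested genes without a stem-loop hold 1 higher and 3 lower calls, beside 12.7% and 9.17% of all tested genes. Genes with an annotated transcript of at least 1000 nt had a median of -0.48 (18 genes) and shorter ones -0.39 (48 genes). By locus, 0 higher and 11 lower calls fell among 52 tested genes of Hist1, 0 and 4 among 10 of Hist2, and 1 and 1 among 3 of Hist3. The single Hist4 gene was the remaining higher call. Over all tested genes 12.7% were called higher and 9.17% lower. The lower calls include Hist1h4n in Hist1 and Hist2h2aa2 in Hist2, whose values among identical rows or genes are uncertain.

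Replacement and other unclustered histone genes lie alone in the genome, and most give polyadenylated mRNA at all stages of the cell cycle. Of 9 tested, 2 were called higher and 1 lower, beside 12.7% and 9.17% of all tested genes, with a median change of 0.07. H2afz, which encodes the H2A variant at promoters, rose from 19.1 and 19.7 to 37.4 (change 0.91, adjusted p = 0.0188), although as deposited its change was -0.22. Cenpa, the H3 variant of centromeres, rose from 2.10 and 1.90 to 4.87 (change 0.97, adjusted p = 0.0107). H2afx, the variant phosphorylated at DNA breaks, whose mRNA is known both with a stem-loop end and with a poly(A) tail, fell from 4.75 and 4.69 to 2.57 (change -0.68, adjusted p = 0.0265). H3.3 comes from H3f3a, at 90.5, 77.9 and 57.3, and H3f3b, at 71.1, 68.6 and 73.6, and neither was called (adjusted p = 0.117 and 0.811). The linker variant H1f0 stood at 6.48, 6.23 and 6.20.

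Of 19 tested genes that transcribe histone genes or process their mRNA, 0 were called higher and 1 lower, beside 12.7% and 9.17% of all tested genes, with a median change of -0.22. The stem-loop binding protein Slbp stood at 11.5, 12.3 and 12.8 (adjusted p = 0.707), and Npat, the coactivator of histone transcription, at 2.54, 2.20 and 2.43 (adjusted p = 0.917). Both tumour values lay within or close to the lymphoid range. Casp8ap2, also called FLASH, stood at 5.03, 5.43 and 3.59, below both (adjusted p = 0.0924), and the U7 particle protein Lsm11 at 0.837, 0.688 and 0.657, under the level for testing. Cstf2, the cleavage factor subunit, was the lower call, from 5.87 and 5.11 to 2.96 (adjusted p = 0.0311). The U7 RNA, Rnu7, was listed at 0 in all 3 libraries.

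Among 20 tested histone chaperones 1 was called higher and 0 lower, with a median change of 0.06. It was Hjurp, the chaperone of Cenpa, at 2.89, 3.15 and 5.74 (adjusted p = 0.0221). In the S phase list 2 of 21 tested genes were called higher and 3 lower, with a median of -0.00, shares near those of all tested genes (12.7% and 9.17%). Tyms, thymidylate synthase, rose from 11.7 and 13.4 to 67.6 (change 2.34, adjusted p = 0.00126, and 0.00599 with counting error), and Lig1, the replicative ligase, from 2.91 and 2.94 to 4.83 (adjusted p = 0.0432). The helicase subunits Mcm5 and Mcm6 and the primase subunit Prim1 fell, by 0.68, 0.60 and 0.95 on the log2 scale. Mki67, a marker of cycling cells, stood at 1.61, 2.09 and 1.67 (adjusted p = 0.753). Of 8 tested RNAs with little or no poly(A) tail 1 was called lower, Rnu11, the minor spliceosome RNA, at 8355, 8489 and 3543 (adjusted p = 0.0220), with a median of -0.61, while Malat1 stood at 1389, 1444 and 1462. With counting error added, Tyms alone kept its call among the genes of these 5 lists.

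The labelled cell type was checked against marker genes. Of the CD4 T cell markers 7 of 10 had a row, 0 of them were at 0 in any library, and their summed level was 598, 590 and 534. The 5 Th1 markers gave 131, 122 and 117 with 1 called lower, Ifng (adjusted p = 0.00535), which encodes interferon gamma. Markers of CD8 T cells (2 genes) gave 0.558, 0.814 and 5.27 with 1 called higher, Cd8b1, and myeloid markers (4 of 5 genes with a row) gave 1.39, 1.04 and 5.16 with 1 called higher, Itgam. Melanocyte markers (7 genes) gave 1.35, 1.49 and 3.35 with 0 called and Mlana at 0 in tumour. B cell markers (5 genes) gave 0.757, 0.530 and 0.646, with Cd79a, Cd79b, Ms4a1 and Pax5 at 0 in tumour. Erythroid markers (3 of 5 genes with a row) gave 1.63, 1.40 and 0.548, with Hba-a1 called lower and, like Hba-a2, at 0 in tumour. Fibroblast markers (4 genes) gave 0.0422, 0.155 and 0.219, with 3 of them at 0 in tumour. The called markers were named after their values were seen. The part of such cells in the histone levels was not tested.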

How the data were processed

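RNA was measured in 3 libraries. Per the labels' protocols, 300000 cells gave the total RNA, ribosomal RNA was removed, and stranded libraries were read in pairs of 75 bp. The values deposited by the authors were taken as FPKM, a unit that is not stated and was inferred: their sums differ between libraries and low values fall on steps of 1 fragment. The submitters' processing notes list kallisto, DESeq2 and mm10 without versions or roles; for the program behind the FPKM, its annotation and its use of strand, the names are not given in the sources used. No counts were at hand, so a test for counts, planned for that case, was left out, and all columns of values were used.

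Size factors came from 9660 genes with a mean FPKM of at least 1 and above 0 in each library. Genes with a mean of at least 1 were tested with limma 3.58.1 (R 4.3.3, mean-variance trend) on log2(scaled FPKM + 1), a scale that understates the change of low genes. Each gene has only 1 residual degree of freedom, from the 2 lymphoid libraries. Its spread was moderated by limma toward a trend fitted over all tested genes, so the SE is not that of the gene alone. Fragments were estimated as FPKM times the RefSeq span, divided by the value of that product that most low genes shared, for 63 of the 68 genes; intervals are Poisson intervals on these estimates at 95% and cover counting error only. The fitting code was tested on simulated data, which checks the code and not the precision that 1 residual degree of freedom gives. Sequence tables used python 3.11.15.

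The genes named are, for each type, the 3 of highest mean, up to 3 calls in each direction by size, and genes at 0 in tumour with a mean of at least 1; for other lists, the 2 largest called rises and falls or the most abundant gene; and 12 genes of interest. Other genes (Hist1h1t, Hist1h2aa and Hist1h2ba, partners in divergent or identical pairs, Hist1h3g, Hist1h4f, Hist2h3c1, Mcm6, Malat1 and Rnu7) were named after their values were seen. The members, lists and rule were chosen with earlier results of these data known. Alternatives covered the scaling, repeated rows, pseudocount, filter, trend, counting error and each lymphoid library.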

Additional observations from a re-analysis of the deposited data

How the results depend on the processing

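The counts of histone genes called (2 higher and 16 lower) depended on scaling, filter and depth. Values as deposited gave 1 and 58, library totals 15 and 7, a mean of at least 5 gave 1 and 8, no filter left 9 lower, and counting error left 0 and 0. Of alternatives chosen after seeing the data, counting error with GENCODE lengths gave 1 and 1, and size factors over all genes above 0 gave 25 lower. Over all tested genes (1246 higher and 899 lower) the counts were 465 and 7620 as deposited, 4370 and 279 with library totals, 211 and 191 at a mean of at least 5, 344 and 33 with counting error, and 346 and 35 with GENCODE lengths; no filter gave 7364 higher, and size factors over all genes above 0 gave 1926 lower. Without the filter, the histone count and the count over all genes are given for opposite directions and cannot be compared. Changing the filter also changes the number of genes tested, so these counts do not give shares. The histone median was -1.31 as deposited and 0.27 with library totals, and -0.64 to -0.19 with either lymphoid library left out. As deposited the sums of H1, H2A, H2B, H3 and H4 changed by -1.65, -1.61, -1.17, -1.97 and -1.84, and with library totals by 0.34, 0.38, 0.80, 0.00077 and 0.12. H2B gave -0.030 with library totals without small RNA rows. With size factors over all genes above 0, H2B, H3 and H4 gave -0.28, -1.08 and -0.95, and summing the rows of a symbol gave -0.51 for H4. Leaving out a lymphoid library gave -0.78 to -0.06 for H1, -0.70 to -0.08 for H2A, -0.13 to 0.17 for H2B, -0.91 to -0.65 for H3 and -0.73 to -0.58 for H4; it leaves 1 library a group, so calls were not tested. As deposited the change was below 0 for genes above 0 after scaling: H2afz -0.22, H3f3b -1.09, Hist1h2ak -0.97, Hist1h2bn -0.86, Hist1h3a -0.81, Hist2h2bb -1.01, Hjurp -0.20, Lig1 -0.35, Npat -0.77 and Slbp -0.98. With counting error 24 named genes lost their call, and with library totals 12 lost and 6 gained one. No paired analysis was possible because the tumour library carries no replicate number. The cause of these changes was not tested.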
